A study of Mus musculus with 50 samples.

Results

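The 5 genes described here encode secreted or mucosal surface proteins of the mouse airway, and their values were followed over all arrays of the series: the lectins Itln1 and Reg3g, the chitinase family genes Chia1 and Chil1, and the IgA transporter Pigr. The members were chosen by symbol in the platform annotation, and the list itself was selected on differences between groups of these same arrays, so their values are given as a description without a test. Whether groups overlapped is likewise only described, because the share of all probes without overlap is not given here. All 5 members had 1 spot on each of the 2 array platforms, among 13409 named genes on the larger and 13509 on the smaller. Itln1 (chromosome 1, 171518123 to 171535325), Chil1 (chromosome 1, 134182156 to 134190031), Pigr (chromosome 1, 130826684 to 130852249), Chia1 (chromosome 3, 106113382 to 106132118) and Reg3g (chromosome 6, 78466269 to 78468874) are placed as in the RefSeq table of GRCm38.p6.

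Mucosal surfaces defend themselves with proteins that bind microbial sugars and with secreted antibody. Itln1 encodes intelectin-1, a secreted lectin that binds exposed sugars of microbial surfaces, and Reg3g encodes a secreted C-type lectin that kills Gram-positive bacteria in the mouse intestine. Chia1 encodes acidic mammalian chitinase, an enzyme that cleaves chitin, a polymer of fungal walls, insects and parasitic worms, while Chil1 encodes a chitinase-like protein that binds chitin and has no chitinase activity. Pigr encodes the polymeric immunoglobulin receptor, which carries dimeric IgA and pentameric IgM across epithelial cells and releases them into the lumen with part of the receptor attached. Airway cells respond to the type 2 cytokine IL-13 largely through the transcription factor Stat6.

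Because the members stood high together in whole lung, the 250 bases before each start site were read from RefSeq (GRCm38.p6) and searched on both strands. The Itln1 window, 171535295 to 171535544 on the minus strand, lies partly inside the gene as placed above. None of the 5 windows held TTCNNNNGAA, the spaced palindrome that Stat6 binds, which 5.85% of 32841 promoter windows of that length held. None held the paired GAAA motif of interferon regulatory factors, which 2.98% of windows held. The core promoter motif TATAAA, which 12.4% of windows held, occurred in the Reg3g and Chia1 windows, 27 and 43 bases before the start, and once more in reverse in the Reg3g window. CACGTG, an E-box held by 6.02% of windows, occurred in the Pigr window 71 bases before the start. The searched motifs do not overlap in these windows. A match is a match of letters, not a measured binding site, and no match says nothing about sites elsewhere. The windows that held a match are printed 5' to 3' on the gene's strand, with the matches in capitals:
Reg3g, chr6:78468875-78469124, minus strand: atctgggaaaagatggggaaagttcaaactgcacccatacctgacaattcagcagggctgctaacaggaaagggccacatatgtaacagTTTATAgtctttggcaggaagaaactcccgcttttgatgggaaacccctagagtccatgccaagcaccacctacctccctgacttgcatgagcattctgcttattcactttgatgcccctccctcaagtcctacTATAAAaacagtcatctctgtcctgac
Chia1, chr3:106113132-106113381, plus strand: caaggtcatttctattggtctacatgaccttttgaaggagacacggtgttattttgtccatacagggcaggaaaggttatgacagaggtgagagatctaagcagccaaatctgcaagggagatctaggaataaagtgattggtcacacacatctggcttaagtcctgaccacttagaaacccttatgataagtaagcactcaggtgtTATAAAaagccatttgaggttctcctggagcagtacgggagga
Pigr, chr1:130826434-130826683, plus strand: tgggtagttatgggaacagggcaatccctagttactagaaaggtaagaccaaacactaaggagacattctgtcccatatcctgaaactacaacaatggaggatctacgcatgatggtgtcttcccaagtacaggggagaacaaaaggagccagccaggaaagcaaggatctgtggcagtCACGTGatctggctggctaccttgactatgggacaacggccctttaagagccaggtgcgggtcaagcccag

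The series held 50 arrays with a reference in one channel and a sample in the other, in 10 groups of 5 arrays. RNA came from tracheal perfusate, amplified for 1 round, or from whole lung, used as unamplified cDNA, per the labels. In each tissue the groups were IL-13 Stat6+/-, IL-13 Stat6-/- Epi+, IL-13 Stat6-/-, OVA (ovalbumin, an allergen) and PBS (saline). Perfusate arrays ran against 5 reference preparations, each with 1 array of every group, whole lung IL-13 arrays against reference pools 3 and 4, and whole lung OVA and PBS arrays, on the smaller platform, against pool 2. The labels give no age, strain, sex or dose, and no genotype for the OVA and PBS animals. No group labelled with a Stat6 genotype lacked IL-13. In published mouse lines of this name, Epi+ marks a transgene that returns Stat6 to airway epithelium under a club cell promoter, and IL-13 is a transgene under the same kind of promoter, whereas these labels give only the marks. Separate animals are not stated for the replicates, and every p-value here therefore reflects only how much these samples varied, possibly for technical reasons.

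The number of spots with a value was 15693 to 18655 per array, and array medians ranged from -0.96 to 0.30 on the log2 scale. The deposited values are log2 ratios with no direction stated in the sources. Sample over reference is likely from the values of Il13 itself. In perfusate, on the same platform and preparations, it averaged 1.77 ± 0.44 in Stat6+/-, 2.09 ± 0.35 in Epi+ and 2.76 ± 0.55 in Stat6-/-. PBS perfusate averaged 0.04 ± 0.34 (SD, n = 5 each). Il13 averaged 5.34 ± 0.82 in IL-13 Stat6+/- lung and 0.47 ± 0.18 in PBS lung (SD, n = 5 each). These lung groups ran on different platforms against different pools. Each array was centred on its median, so every value below is a log2 ratio relative to the middle of its array. The centring removed medians that differed between groups by up to -0.37 within a tissue, for Stat6+/- against Stat6-/- lung. In perfusate the medians of these groups differed by 0.12. The Stat6+/- over Stat6-/- difference in medians thus itself differed by 0.49 between the tissues, as perfusate minus lung. Y-linked Eif2s3y was low on 3 of the 5 perfusate and 2 of the 5 whole lung arrays of IL-13 Stat6-/- animals and on 0 arrays of the other groups of the larger platform. The Stat6 probe did not separate the labelled genotypes: it averaged -0.86 ± 0.44 in Stat6+/- and -0.67 ± 0.20 in Stat6-/- lung, and 0.65 ± 0.51 in Stat6+/- and 0.75 ± 0.44 in Stat6-/- perfusate (SD, n = 5 each), with overlapping arrays. The place of that probe relative to the deleted part of the gene is not given, so the genotypes are as labelled. A ratio gives no absolute level, so expression cannot be ranked between genes, and a probe may also bind close relatives of its gene, such as other intelectin or acidic chitinase genes. In such bulk samples, more cells of a type and more RNA per cell cannot be told apart.

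In IL-13 whole lung, all 5 genes stood far higher with a Stat6 allele than without one. The lectins and chitinases were between 6.08-fold (Reg3g) and 27.2-fold (Itln1) higher in Stat6+/- than in Stat6-/- lung, and Pigr was 13.2-fold higher. In limma's test 779 of 16096 probes (4.84%) passed an adjusted p of 0.05 in this comparison, 520 higher and 259 lower, or 102 and 182 with values as deposited. The 5 members were among them, from which nothing is read because this contrast was one that chose them.

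Itln1, the lectin, had log2 ratios of 4.65, 5.56, 3.56, 5.15 and 6.13 in Stat6+/- lung, against 2.01, -0.61, -0.31, -0.12 and 0.24 in Stat6-/- lung. The groups did not overlap, and 1 Stat6-/- array, replicate 1, lay well above the other 4. The difference was 4.77 ± 0.79 (SE of the fit, n = 5 each), or 5.17 with that array left out. Reg3g, the antibacterial lectin, had 2.94, 2.34, 1.52, 2.60 and 1.13 in Stat6+/- lung, against -0.04, -1.17, -0.86, 0.02 and -0.45 in Stat6-/- lung. No Stat6-/- array reached the lowest Stat6+/- array, and arrays against pool 4 averaged higher than those against pool 3 in both groups (2.63 against 1.32 in Stat6+/-, -0.16 against -1.01 in Stat6-/-). The difference was 2.61 ± 0.19, and within the pools it was 2.34 (pool 3) and 2.78 (pool 4).

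Chia1, the chitinase, had 3.78, 3.62, 3.29, 4.20 and 3.64 in Stat6+/- lung, against -0.99, -0.93, -1.11, 0.62 and -0.78 in Stat6-/- lung. The Stat6+/- arrays lay within 0.91 of one another, and 1 Stat6-/- array, replicate 5, lay above the other 4. The difference was 4.34 ± 0.29, a 20.3-fold higher ratio. Chil1, the chitinase-like protein, had 3.07, 3.58, 3.00, 2.55 and 2.33 in Stat6+/- lung, against -0.03, -0.33, -0.61, 1.02 and -2.87 in Stat6-/- lung. Its Stat6-/- arrays spread over 3.88, the widest Stat6-/- range of the 5 genes in this tissue, yet stayed below every Stat6+/- array. The difference was 3.47 ± 0.55.

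Pigr, the IgA transporter, had the tightest groups. Its log2 ratios were 4.02, 4.59, 4.43, 4.31 and 4.83 in Stat6+/- lung, against 0.38, 0.96, 0.52, 1.03 and 0.68 in Stat6-/- lung. The difference was 3.73 ± 0.21, with 3.89 within pool 3 and 3.61 within pool 4. All 5 genes thus differed in the same direction within both pools, over 2 and 3 arrays a group.

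**Figure D1:**
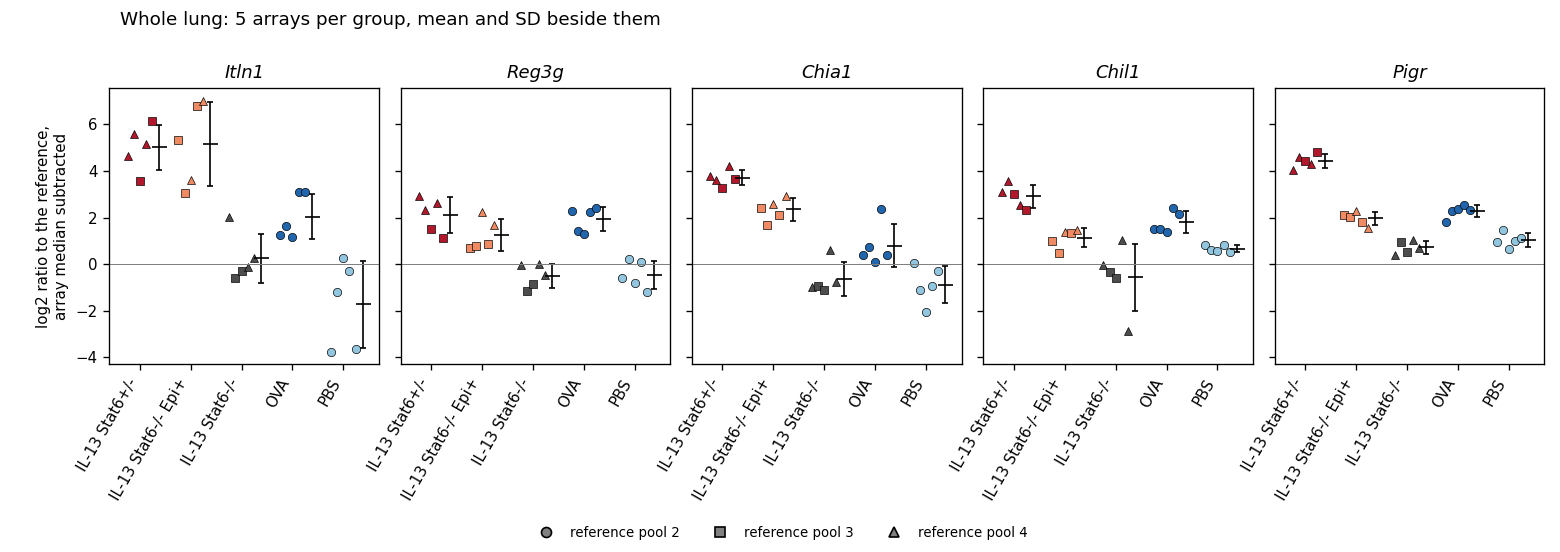
Log2 ratio to the reference, with the array median subtracted, of the 5 genes on each whole lung array (y axis) by group (x axis); symbols give the reference pool, and the bar beside each group is its mean with SD (n = 5). Every Stat6+/- array lies above every Stat6-/- array for all 5 genes, while the Epi+ arrays reach the Stat6+/- range for Itln1 and stay near 2 for Pigr; OVA and PBS arrays ran on another platform against another pool, so their height is to be compared only with each other.

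The Epi+ lungs separated the 5 genes. Itln1 averaged 5.01 ± 0.97 in Stat6+/- and 5.16 ± 1.79 in Epi+ lung (SD, n = 5 each), Chia1 and Reg3g lay nearer to Stat6+/- than to Stat6-/- lung, Chil1 lay midway, and Pigr lay nearer to Stat6-/- lung. In limma's test only 12 of 16096 probes (0.0746%) passed between Epi+ and Stat6-/- lung, all of them higher in Epi+, and Itln1, Reg3g and Chia1 were 3 of the 12. Between Stat6+/- and Epi+ lung 550 probes (3.42%) passed, with 386 higher in Stat6+/- and 164 lower, or 173 and 39 after quantile normalization, and Pigr and Chia1 were among them. These contrasts share the Epi+ arrays, and the first shares the Stat6-/- arrays with the comparison above. They also informed the choice of members, and nothing is read from the counts.

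Itln1 had log2 ratios of 5.33, 3.06, 3.62, 6.78 and 7.01 in Epi+ lung, a wider spread than in any other IL-13 lung group. It was 5.03 ± 0.80 higher in Epi+ than in Stat6-/- lung, with no overlap, and differed by -0.26 ± 0.80 between Stat6+/- and Epi+ lung. Leaving out single arrays moved that last difference between -0.89 and 0.24, so no order of the Stat6+/- and Epi+ groups can be given for Itln1. Reg3g had 0.70, 0.79, 2.26, 0.84 and 1.66 in Epi+ lung, 1.97 ± 0.20 above Stat6-/- lung without overlap and 0.63 ± 0.20 below Stat6+/- lung with overlap. Chia1 had 2.42, 1.69, 2.57, 2.11 and 2.94 in Epi+ lung, 3.10 ± 0.29 above Stat6-/- lung, and Stat6+/- lung was a further 1.24 ± 0.29 higher, again without overlap.

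Chil1 had 0.98, 0.48, 1.40, 1.34 and 1.46 in Epi+ lung. These overlapped the Stat6-/- arrays, whose highest value was 1.02, and lay below every Stat6+/- array. The differences were 1.74 ± 0.56 for Epi+ over Stat6-/- and 1.73 ± 0.56 for Stat6+/- over Epi+. Pigr had 2.12, 2.02, 2.29, 1.82 and 1.55 in Epi+ lung. It was 1.22 ± 0.21 higher than in Stat6-/- lung and 2.51 ± 0.21 lower than in Stat6+/- lung, and neither pair of groups overlapped. In Pigr and Chia1 the arrays ran from Stat6+/- over Epi+ to Stat6-/- with no overlap between neighbours. Neighbours overlapped in Itln1 (Epi+ and Stat6+/-), Reg3g (Stat6+/- and Epi+) and Chil1 (Epi+ and Stat6-/-). The share of all probes without overlap is not given, so nothing is read from this contrast between the genes.

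**Figure D2:**
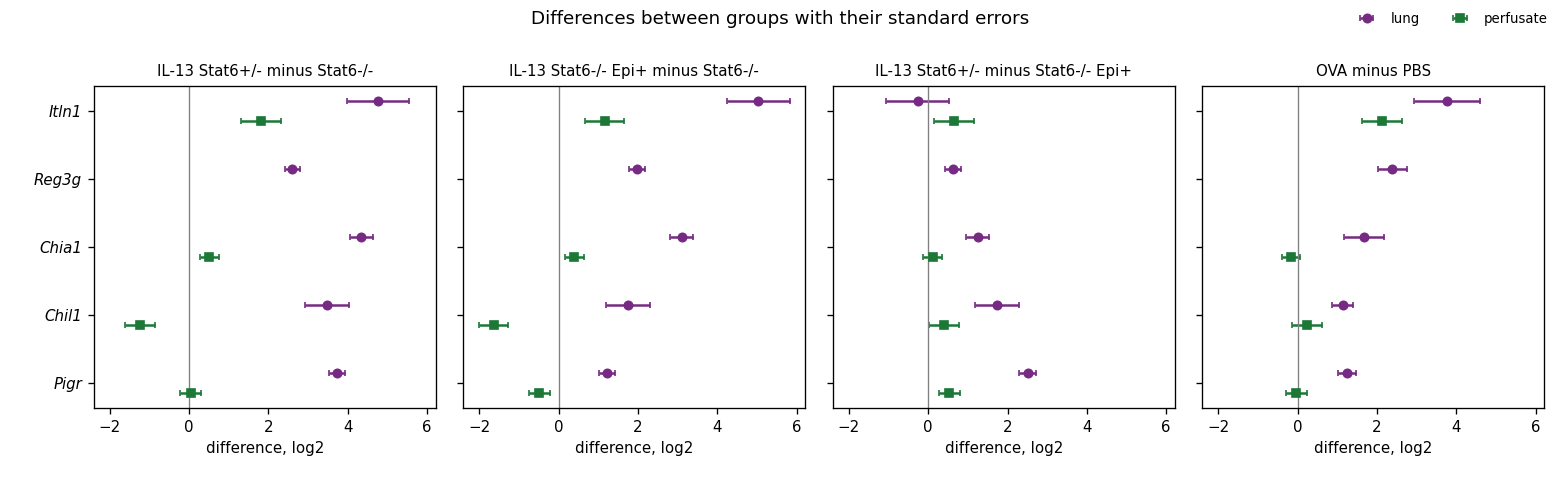
Log2 difference between groups with its standard error from the fit (x axis) for the 5 genes (rows), in whole lung (circles) and perfusate (squares), with 5 arrays a group. For Stat6+/- over Stat6-/- all 5 lung values lie between 2.61 and 4.77, while in perfusate Itln1 is at 1.81, Chia1 at 0.51, Pigr at 0.04 and Chil1 at -1.23; Reg3g has no perfusate point because its deposited ratio was at 0 on 24 of 25 arrays.

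Marker genes of other cells moved with these groups in whole lung. Of 9 measured mucous cell markers, 6 were higher in Stat6+/- than in Stat6-/- lung and 5 were higher in Epi+ than in Stat6-/- lung. The mean of the 7 with a value on every array ran from 3.38 to 4.95 over the Stat6+/- arrays, from 2.07 to 3.80 over the Epi+ arrays and from -0.25 to 0.15 over the Stat6-/- arrays. Of 6 macrophage markers, 5 were higher and 1 lower in Stat6+/- than in Stat6-/- lung, and the mean of the 4 with a value on every array ran from 2.95 to 5.15 over Stat6+/- arrays, from -1.19 to 0.66 over Epi+ arrays and from -0.41 to 0.16 over Stat6-/- arrays. The mucous markers thus stood high in both groups in which Itln1, Reg3g and Chia1 were high, and the macrophage markers in the Stat6+/- group alone. Their part in the members' values was not tested.

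Genes related to the 5 by family or function were read as fixed lists, which were chosen with earlier results of these data known. Some lectins rose in Stat6+/- against Stat6-/- lung. Of 19 other lectins and Reg genes measured, 6 rose and 0 fell, with a list median of 0.37 against -0.04 over all probes. Clec7a, the beta-glucan receptor dectin-1, rose most by 3.61 ± 0.30 (adjusted p = 2.02e-05). Clec10a, a galactose-type lectin of macrophages and dendritic cells, rose by 2.30 ± 0.24 (adjusted p = 0.000133), and Mrc1, the mannose receptor, which is also on the macrophage list, by 1.86 ± 0.32 (adjusted p = 0.00473). The lung collectins Sftpd and Sftpa1 rose by 1.63 ± 0.25 and 0.90 ± 0.21 (adjusted p = 0.00219 and 0.0246), and Lgals1, a galectin, by 1.81 ± 0.24 (adjusted p = 0.000773). The 3 measured relatives of Reg3g did not pass, and the first 2 were measured on few arrays. Reg3b differed by -2.65 ± 1.12 (limma adjusted p = 0.229, with 3 and 4 arrays), Reg4 by -1.28 ± 0.62 (adjusted p = 0.314, with 3 and 4 arrays) and Reg1 by -0.18 ± 0.58 (adjusted p = 0.897).

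No other chitinase family gene rose in this test. Of 3 measured, Ctbs, a lysosomal chitobiase, fell by 0.71 ± 0.18 in Stat6+/- lung (limma adjusted p = 0.0372), while Chit1, the other true chitinase, differed by -0.53 ± 0.62 (adjusted p = 0.7, with 3 arrays each) and Chid1 by 0.66 ± 0.32 (adjusted p = 0.293). Chil3 and Chil4, the chitinase-like genes closest to Chia1, had no probe. Of 29 measured genes of IgA, its induction and its transport other than Pigr, 2 rose and 0 fell. Xbp1, a transcription factor of secretory and plasma cells, rose by 1.15 ± 0.22 (adjusted p = 0.0101), and Tnfsf13, the cytokine APRIL that promotes IgA switching, rose by 0.63 ± 0.14 (adjusted p = 0.0232). A further list held inputs of Reg3g and Pigr, with IL-22, IL-17 and Stat3 genes and other immune signals such as Tnf, Ifng, Il1b, Tlr3 and Tlr4. Of its 15 measured genes, 4 rose and 0 fell: Socs3, a Stat3 feedback inhibitor, by 1.90 ± 0.36 (adjusted p = 0.00932), Stat3 by 1.33 ± 0.26 (adjusted p = 0.00993), the adaptor Myd88 by 1.45 ± 0.34 (adjusted p = 0.0326) and the endotoxin receptor Tlr4 by 1.13 ± 0.22 (adjusted p = 0.00977).

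Secreted host defence proteins held the largest changes among these lists. Of 17 measured, 5 rose and 1 fell in Stat6+/- against Stat6-/- lung. Saa3, an acute phase protein, averaged 7.04 ± 0.56 (SD, n = 4) in Stat6+/- lung and 0.64 ± 0.54 (SD, n = 5) in Stat6-/- lung, a rise of 6.45 ± 0.45 (limma adjusted p = 9.16e-06). Retnla, a resistin-like protein of type 2 inflammation, rose by 4.92 ± 0.76 (adjusted p = 0.00274), Ltf, the iron-binding protein lactotransferrin, by 2.89 ± 0.39 (adjusted p = 0.000988), Retnlb, another resistin-like protein, by 2.13 ± 0.44 (adjusted p = 0.0146), and Slpi, a protease inhibitor, by 1.57 ± 0.31 (adjusted p = 0.0109). Bpifa1, an airway surface protein, fell by 3.02 ± 0.47 (adjusted p = 0.0028). In Epi+ against Stat6-/- lung 0 genes of these 5 lists passed limma's test. An unadjusted p under 0.05 was reached by 1 lectin, 0 chitinase family, 1 IgA, 0 input list and 5 secreted genes. Over all probes it was reached by 672 of 16096. In Stat6+/- against Epi+ lung 11 genes of the 5 lists rose and 1 fell. They were the lectins Clec7a (3.24 ± 0.30), Clec10a (2.17 ± 0.24), Mrc1 (1.90 ± 0.32), Lgals1 (1.60 ± 0.24) and Sftpd (1.03 ± 0.25), with limma adjusted p from 0.000103 to 0.0414. Of the secreted genes Saa3 rose by 6.62 ± 0.45 (adjusted p = 3.12e-05), Ltf by 2.20 ± 0.40 (adjusted p = 0.00997) and Slpi by 1.53 ± 0.31 (adjusted p = 0.0195). Socs3 rose by 1.77 ± 0.37 (adjusted p = 0.021), Tlr4 by 1.16 ± 0.22 (adjusted p = 0.0136) and Xbp1 by 1.37 ± 0.22 (adjusted p = 0.00585), and Ctbs fell by 0.99 ± 0.18 (adjusted p = 0.00979).

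All 5 genes stood higher in OVA than in PBS lung without overlap, from 2.19-fold (Chil1) to 13.6-fold (Itln1). In limma's test 299 of 17047 probes (1.75%) passed, 256 higher and 43 lower, or 35 and 1 with values as deposited and 180 and 78 after quantile normalization. Pigr and Reg3g were among those that passed, and nothing is read from this count or from the lack of overlap. All 10 arrays ran against pool 2.

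Reg3g had log2 ratios of 2.28, 1.41, 1.31, 2.22 and 2.43 in OVA lung, against -0.61, 0.24, -0.81, 0.09 and -1.20 in PBS lung, a difference of 2.39 ± 0.36. Itln1 had 1.25, 1.62, 1.15, 3.09 and 3.10 in OVA lung, against -3.76, -1.18, 0.25, -0.29 and -3.64 in PBS lung. The Itln1 difference of 3.76 ± 0.83 came with PBS arrays that fell in a low pair and a higher trio. Chia1 had 0.41, 0.74, 0.08, 2.37 and 0.38 in OVA lung, against 0.03, -1.13, -2.04, -0.95 and -0.29 in PBS lung.

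The Chia1 groups nearly touched, and the difference was 1.67 ± 0.50, or 1.28 without OVA replicate 5. Chil1 had 1.49, 1.53, 1.37, 2.42 and 2.16 in OVA lung, against 0.83, 0.61, 0.55, 0.82 and 0.51 in PBS lung, a difference of 1.13 ± 0.26. Pigr had 1.83, 2.28, 2.35, 2.53 and 2.33 in OVA lung, against 0.96, 1.45, 0.64, 0.98 and 1.11 in PBS lung, a difference of 1.24 ± 0.23. After quantile normalization the Chil1 and Pigr differences were 0.54 and 0.49.

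Cell markers moved with OVA as well. Of 10 mucous markers 6 were higher in OVA than in PBS lung, with means of 2.08 to 2.56 over OVA arrays and -0.25 to 0.45 over PBS arrays. Macrophage markers (2 of 6 higher; means of 1.04 to 2.13 and -0.16 to 0.56), eosinophil and mast cell markers (1 of 8 higher; 0.74 to 2.45 and -0.62 to -0.15) and B and plasma cell markers (2 of 7 higher; 0.32 to 1.39 and -1.07 to 0.12) stood higher too. Their part in the members' values was not tested. Of the IgA list 3 of 30 genes rose in OVA lung: Ighm, the IgM heavy chain and a cargo of Pigr, by 1.64 ± 0.35 (limma adjusted p = 0.0447), Irf4, a factor of plasma cell differentiation, by 2.50 ± 0.38 (adjusted p = 0.0125) and the cytokine Il6 by 1.79 ± 0.30 (adjusted p = 0.0199). Jchain, which joins IgA and IgM into the polymers that Pigr carries, differed by -0.31 ± 0.46 (adjusted p = 0.778).

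Among other lectins 3 of 21 rose in OVA lung, which were Clec7a by 2.36 ± 0.32 (limma adjusted p = 0.00998), Clec10a by 1.96 ± 0.28 (adjusted p = 0.00998) and Lgals1 by 1.29 ± 0.25 (adjusted p = 0.0288). Of 17 secreted defence genes 4 rose, Saa3 by 3.46 ± 0.46 (adjusted p = 0.00981), Retnla by 2.87 ± 0.39 (adjusted p = 0.00998), Bpifb1, an airway surface protein, by 2.23 ± 0.32 (adjusted p = 0.00998) and Cfb, complement factor B, by 1.84 ± 0.27 (adjusted p = 0.01). Of 16 genes on the list of inputs of Reg3g and Pigr 1 rose, Tnf by 1.72 ± 0.31 (limma adjusted p = 0.0232). Of 4 chitinase family genes 0 passed limma's test, with 1 at an unadjusted p under 0.05, against 2696 of all 17047 probes.

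Tracheal perfusate gave another picture, in which Reg3g could not be read and Chil1 was lower in the IL-13 groups that had Stat6. Of the members that could be read, Itln1 alone had every Stat6+/-, Epi+ and OVA array above every PBS array. The share of all probes that did so is not given, and nothing is read from this. Of 16873 probes, 3.14% passed limma's test when Stat6+/- was set against Stat6-/- perfusate. The share was 0.486% in Epi+ over Stat6-/- (25 higher and 57 lower, or 11 and 6 with values as deposited), 0.0237% in Stat6+/- over Epi+ and 0.237% in OVA over PBS. The members that passed numbered 0 of 5 in each of these 4 comparisons, where the count holds no information on Reg3g. At an unadjusted p under 0.05 they numbered 3, 2, 0 and 1 in the same order. Of the 16873 probes 2165, 1251, 1184 and 1545 did so, and nothing is read from the member counts.

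Itln1 had log2 ratios of 2.61, 1.78, 3.32, 1.61 and 1.19 in Stat6+/- perfusate and 1.43, 1.49, 2.67, 0.70 and 0.98 in Epi+ perfusate, against -0.88, -0.57, -0.58, 2.37 and 1.13 in Stat6-/- perfusate. The Stat6-/- arrays split, with 3 below 0 and 2 within the range of the other groups, and the 3 low ones were the 3 with low Eif2s3y. The differences from Stat6-/- were 1.81 ± 0.50 for Stat6+/- and 1.16 ± 0.50 for Epi+, and without those 3 arrays they were 0.28 and -0.36. In OVA perfusate Itln1 had 2.49, 0.92, 1.99, 2.16 and 2.23, against 0.11, -0.02, -0.44, -0.78 and 0.29 in PBS perfusate. OVA exceeded PBS in all 5 reference preparations, by 1.70 to 2.44, and the difference was 2.13 ± 0.50. Stat6+/- and Epi+ perfusate also lay above PBS in 5 of 5 preparations, by 2.27 ± 0.50 and 1.62 ± 0.50. By mean the order was Stat6+/-, OVA, Epi+, Stat6-/- and PBS; the first 3 overlapped one another and lay wholly above PBS, while Stat6-/- overlapped all 4.

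Reg3g gave no usable ratio in perfusate. Its deposited log2 ratio lay within 0.01 of 0 on 24 of the 25 perfusate arrays, as it did on 0 of the 25 lung arrays, so its centred value there is little more than the array median with the sign turned. A ratio sits at 0 when both channels give the same reading, and 22 of 19152 spots did so on most perfusate arrays. Of all perfusate values 1.74% lay that close to 0. Channel intensities were not used here, so whether both channels were at a limit of the scanner was not tested. No level, difference or likeness of Reg3g in perfusate is therefore given. The other members had such a value on at most 1 perfusate array.

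Chia1 averaged 0.61 ± 0.21 in Stat6+/-, 0.49 ± 0.40 in Epi+, 0.12 ± 0.30 in OVA, 0.10 ± 0.40 in Stat6-/- and 0.29 ± 0.60 in PBS perfusate (SD, n = 5 each). Stat6+/- exceeded Stat6-/- in 5 of 5 preparations, by 0.11 to 1.04, with overlapping groups and a difference of 0.51 ± 0.24, or 0.88 without the arrays with low Eif2s3y.

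Chil1 had -1.95, -2.15, 0.06, -1.40 and -0.14 in Stat6+/- perfusate and -2.34, -1.53, -0.96, -1.27 and -1.53 in Epi+ perfusate, against 0.45, 0.12, 0.09, -0.65 and 0.57 in Stat6-/- perfusate. Stat6+/- and Epi+ were each lower than Stat6-/- in 5 of 5 preparations, although the Stat6+/- difference was only -0.03 in preparation 1.4. The differences were -1.23 ± 0.37 for Stat6+/- and -1.64 ± 0.37 for Epi+, and the Epi+ arrays did not overlap the Stat6-/-, OVA or PBS arrays. OVA and PBS perfusate averaged 0.33 ± 0.72 and 0.10 ± 0.62, and both overlapped Stat6-/- perfusate. Chil1 was thus on opposite sides of Stat6-/- in the 2 tissues, higher in Stat6+/- lung and lower in Stat6+/- perfusate.

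Pigr in perfusate followed the reference preparation more than the group. Its mean over the 5 groups was -0.16 and -0.19 against preparations 1.1 and 1.2 and between 0.76 and 1.13 against the other 3, and the preparation carried 71.4% of its within-group variance, against 26.8% to 36.0% in Itln1, Chia1 and Chil1. Pigr averaged 0.42 ± 0.58 in Stat6+/-, -0.12 ± 0.95 in Epi+, 0.38 ± 0.55 in Stat6-/-, 0.82 ± 0.58 in OVA and 0.86 ± 0.84 in PBS perfusate, with every neighbouring pair overlapping. Epi+ lay below PBS in 5 of 5 preparations, by -0.30 to -1.89, and Stat6+/- differed from Stat6-/- by 0.04 ± 0.27.

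**Figure D3:**
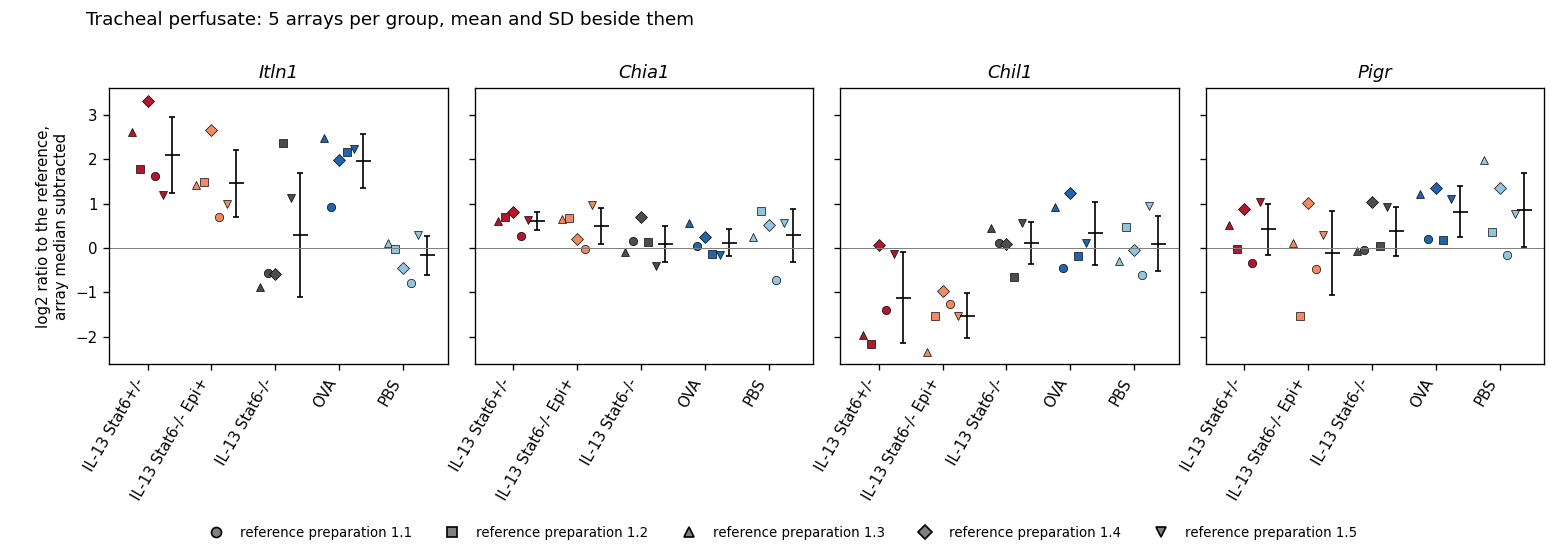
Log2 ratio to the reference, with the array median subtracted, of 4 of the genes on each perfusate array (y axis), Reg3g left out, by group (x axis); symbols give the reference preparation, and the bar beside each group is its mean with SD (n = 5). Itln1 arrays of PBS lie at or below 0.29 and those of Stat6+/-, Epi+ and OVA at or above 0.70, and Chil1 arrays of Epi+ lie at or below -0.96.

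**Figure D4:**
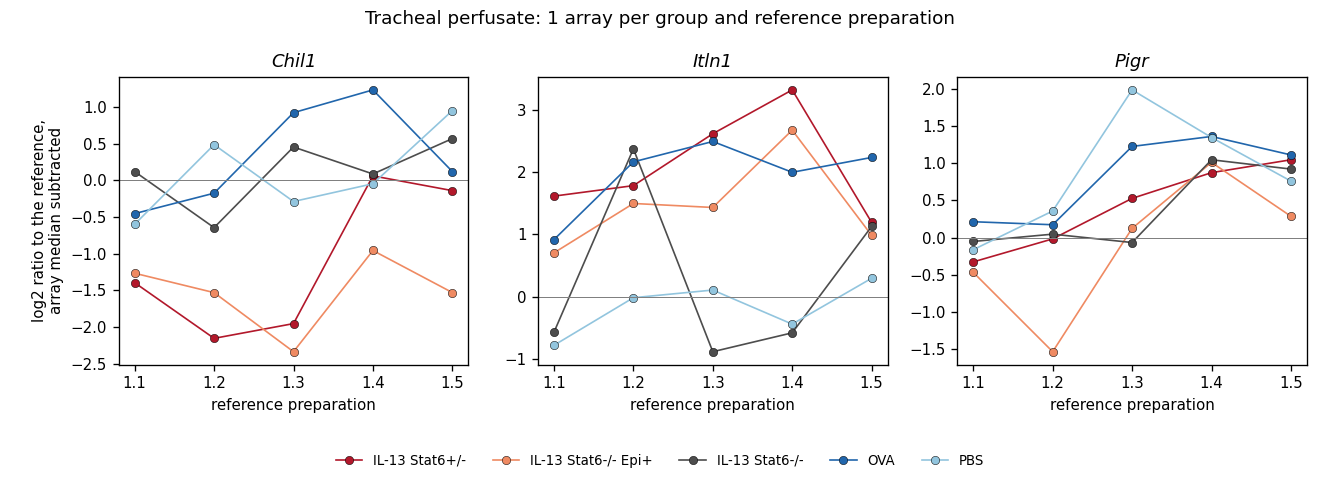
Log2 ratio, with the array median subtracted (y axis), of Chil1, Itln1 and Pigr against each of the 5 reference preparations (x axis), with 1 array per group and preparation; lines join the arrays of a group and carry no time order. For Chil1 the Epi+ line lies below the Stat6-/- line throughout, for Itln1 the Stat6-/- line is high against preparations 1.2 and 1.5 alone, and for Pigr all groups lie higher against preparations 1.4 and 1.5 than against 1.1.

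Few related genes changed in perfusate, and most of those that did were lower. Of 19 other lectins 1 fell in Stat6+/- against Stat6-/- perfusate, the collectin Sftpa1, by 2.55 ± 0.25 (limma adjusted p = 1.63e-05), and it fell by 1.88 ± 0.25 in Epi+ (adjusted p = 0.00103). Of 17 secreted defence genes 2 fell, Hp, haptoglobin, by 2.53 ± 0.19 (adjusted p = 4.57e-07) and Cfb, complement factor B, by 1.21 ± 0.27 (adjusted p = 0.0158), and both fell in Epi+ perfusate as well, by 1.33 ± 0.19 and 1.78 ± 0.27 (adjusted p = 0.00162 and 0.00319). The 17 include Bpifa1 and Wfdc2, whose deposited ratios were at 0 on 23 and 18 of 25 perfusate arrays. Chit1, the other chitinase, rose by 1.68 ± 0.42 in Stat6+/- perfusate (adjusted p = 0.0335), as 1 of 4 measured family genes. Of 31 IgA genes 1 passed, the kinase Yes1, which fell by 0.60 ± 0.13 (adjusted p = 0.0116). On the list of inputs of Reg3g and Pigr 2 of 16 genes fell, Il17rb by 0.98 ± 0.24 and Tnf by 0.92 ± 0.23 (adjusted p = 0.0282 and 0.0291). In Epi+ perfusate Tnf fell by 1.12 ± 0.23 (adjusted p = 0.0287), and the Hp difference of Stat6+/- and Epi+ perfusate was -1.20 ± 0.19 (adjusted p = 0.04). In OVA against PBS perfusate Saa3 rose by 3.10 ± 0.59 (limma adjusted p = 0.0275) and Hp fell by 0.95 ± 0.19 (adjusted p = 0.0384). From the other 4 lists 0 genes passed limma's test. There 1 lectin, 1 chitinase family, 6 IgA and 0 input list genes had an unadjusted p under 0.05, against 1545 of all 16873 probes.

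Mucous markers were high in the same perfusate groups as Itln1. Of 10 measured, 6 were higher in Stat6+/- and 4 in Epi+ than in Stat6-/- perfusate, and 3 were higher in OVA than in PBS perfusate. The mean of the 8 with a value on every array ran from 0.67 to 1.44 over Stat6+/-, from 0.72 to 1.21 over Epi+ and from -0.48 to -0.16 over Stat6-/- arrays, and from 0.91 to 1.33 over OVA and -0.31 to 0.08 over PBS arrays. That mean was below 0 on all 5 Stat6-/- arrays, including the 2 on which Itln1 was high. The marker Agr2 had a deposited ratio at 0 on 13 of 25 arrays for 1 of its spots and on 6 for the other, and Tff2 had one on 6. Of 8 ciliated cell markers 2 were higher in Stat6+/- and 1 in Epi+ than in Stat6-/- perfusate, with means of 0.15 to 0.53 over Stat6+/-, 0.18 to 0.60 over Epi+ and -0.43 to 0.22 over Stat6-/- arrays. Of 6 club cell markers 1 was lower in Stat6+/- and 0 in Epi+ perfusate, but 4 of the 6 (Scgb1a1, Scgb3a1, Cyp2f2 and Aldh1a1) were at 0 on 20 or more arrays. Of 4 alveolar type 2 markers 1, Sftpa1, fell in Stat6+/- and in Epi+ perfusate. The median difference of the 4 was nonetheless 0.46 in Stat6+/- and 0.25 in Epi+. In limma's test 4 of 4 and 2 of 4 had an unadjusted p under 0.05, against 2165 and 1251 of all 16873 probes. The mean of the 4 markers ran from -1.09 to -0.22 over Stat6+/-, from -0.93 to -0.49 over Epi+ and from -0.75 to -0.07 over Stat6-/- arrays. Macrophage markers had 0 of 6 called in either comparison. The part of these cells in the values was not tested.

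The difference between the tissues was itself fitted as an interaction term, over the larger platform, as perfusate minus lung of the Stat6+/- over Stat6-/- difference. In limma's test 662 of 15370 probes (4.31%) passed, 192 higher and 470 lower, or 270 and 103 with values as deposited. Chil1, Chia1, Pigr and Reg3g were among them and Itln1 was not, and nothing is read from this count. The term was -4.70 ± 0.66 for Chil1, -3.83 ± 0.37 for Chia1, -3.68 ± 0.34 for Pigr and -2.96 ± 0.92 for Itln1, and none is given for Reg3g, whose perfusate ratio was at 0. Lung and perfusate differed in amplification and reference as well as in tissue, which cannot be told apart.

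The genes with the most similar patterns were named by Pearson's correlation over the arrays of a set, after the mean of each preparation or pool was removed, as a description. Over the 15 IL-13 lung arrays, which share 3 groups and 2 pools, Reg3g was most like Agr2 (r = 0.97), a mucous cell protein, Clca1 (r = 0.96) and Chia1 (r = 0.96). Chia1 was most like Agr2, Reg3g and Tff2 (r = 0.95 to 0.96), and Itln1 like Agr2, Chia1 and Aoc1 (r = 0.83 to 0.85). Pigr was most like Il33 (r = 0.97), Ccl6 and Rnf128, and Chil1 like Gkn3 (r = 0.91), Tnfsf13 and Hc. Between the members r was 0.62 for Itln1 and Pigr and 0.96 for Reg3g and Chia1.

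Over the 25 perfusate arrays, which share 5 groups and 5 preparations, Itln1 was most like Tff2 (r = 0.87), a trefoil factor of mucous cells, then Sgca and Pla2g10. The deposited ratio of Tff2 was at 0 on 6 of these arrays, which limits that likeness. Chil1 was most like Cfb (r = 0.92), Sftpd (r = 0.91) and Macrod2. Pigr was most like Gaa (r = 0.85), and Chia1 like Akirin1 (r = 0.70). Between these 4 members the largest correlation in perfusate was 0.45, for Chil1 and Pigr.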

How the data were processed

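Per the labels, RNA from tracheal perfusate (1 round of amplification, not stated for 3 arrays) and whole lung was hybridised on two-channel arrays, with the reference in channel 1. The authors deposited log2 ratios. Neither scanner, background correction, normalization nor direction is stated in the labels or files. Here each of the 50 arrays was centred on its median and spots of one accession were averaged, giving 18272 and 18057 probes. Models with the reference preparation or pool as a block were fitted by least squares with limma 3.58.1 variance moderation in R 4.3.3. Probes with at least 3 arrays in each group were tested, adjusted by Benjamini-Hochberg over all probes, and called under 0.05. Perfusate groups were fitted together over 25 arrays, lung IL-13 groups over 15 and lung OVA and PBS over 10. A gene of a list was named if called, up to 6 per list and comparison. The limit of 0.01 for a deposited ratio at 0 was set after seeing the data. Reg3b, Reg4, Reg1, Chit1 in lung, Chid1 and Jchain, which were not called, were named after their values were seen. The members and lists were chosen with earlier results of these data known. The steps were tested on simulated data. Same-numbered samples did not pair: over 16 pairs r ran from -0.603 to 0.43. Each group held 5 arrays, and what limits precision was not tested.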

Additional observations from a re-analysis of the deposited data

Results flagged for a closer look

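In 3 of 50 groups examined a single array of a member stood apart from the other 4. Chance marks about 1 group in 20, so this share is near that of chance. Reg3g reached 0.85 on 1 Stat6+/- perfusate array, against 0.11 to 0.26 on the others; that array was the only one of 25 in perfusate on which its deposited ratio was not at 0. Chia1 reached 0.62 on 1 Stat6-/- lung array, against -1.11 to -0.78 on the others, and 2.37 on 1 OVA lung array, against 0.08 to 0.74.

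Chil1 differed in direction between the tissues. Stat6+/- over Stat6-/- was -1.23 in perfusate and 3.47 in lung, and Epi+ over Stat6-/- was -1.64 in perfusate and 1.74 in lung; the Epi+ pair of values was not tested against each other.

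Among related genes, the Stat6+/- over Stat6-/- difference differed between the tissues, taken as perfusate minus lung in limma's interaction test, for 18 of the genes named by the rule. Of the lectins, the term was -3.67 for Clec7a (adjusted p = 9.12e-08), -3.45 for Sftpa1 (adjusted p = 5.26e-08), -2.46 for Sftpd, -2.17 for Mrc1, -2.06 for Clec10a and -1.75 for Lgals1. Of the secreted defence genes, it was -6.01 for Saa3 (adjusted p = 1.11e-05), -3.64 for Ltf, -3.31 for Retnla, -2.45 for Hp, -2.09 for Slpi and 2.73 for Bpifa1 (adjusted p = 0.000402). The perfusate ratio of Bpifa1 was at 0 on 23 of 25 arrays, and the 2 Ltf spots were at 0 on 10 and 4, so the perfusate side of both terms is limited. In the other lists it was -1.68 for Socs3, -1.41 for Myd88, -0.95 for Stat3, -1.27 for Xbp1, -1.08 for Tnfsf13b, the B cell survival factor BAFF, and 0.91 for Ctbs (adjusted p = 0.0447). Sftpa1 was thus higher in Stat6+/- lung and lower in Stat6+/- perfusate, and both differences passed the test.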

How the results depend on the processing

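Of 410 values of the 60 member differences under the alternatives, 389 stayed within the spread of the arrays, 21 moved and 0 of the called ones changed sign. The 60 include the Reg3g differences that rest on its perfusate ratios, whose steadiness carries no information. With low Eif2s3y as a covariate or, chosen after seeing the data, without those arrays, Itln1 in perfusate gave 0.28 for Stat6+/- over Stat6-/-, -0.36 for Epi+ over Stat6-/- and 1.99 for Stat6-/- over PBS, and Chia1 gave 0.88 for Stat6+/- over Stat6-/-. The tissue term became -4.83 and -4.81 for Itln1 and -3.28 and -3.29 for Chia1. As deposited, Pigr in lung was 3.36 for Stat6+/- over Stat6-/-, and the tissue terms were -3.34 (Chia1) and -3.19 (Pigr). After quantile normalization these were 3.23, -3.13 and -2.82, Itln1's tissue term was -1.55, and OVA over PBS in lung was 0.54 (Chil1) and 0.49 (Pigr). Without Stat6-/- replicate 6, Chil1 in lung was 1.18 higher in Epi+ than in Stat6-/-.

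Counts of called probes were less stable, and the cause was not tested. In perfusate they were 529 (Stat6+/- over Stat6-/-), 82 (Epi+ over Stat6-/-), 4 (Stat6+/- over Epi+) and 40 (OVA over PBS). In that order they were 128, 17, 0 and 15 as deposited, 270, 31, 2 and 19 without the reference block, and 69, 1, 0 and 0 with only the groups compared. For the first pair they were 163 and 22 with low Eif2s3y as a covariate and 183 and 33 without those arrays. Stat6+/- over Epi+ gave 0 after quantile normalization and 7 over probes with a value on every array. Without preparation 1.3, Epi+ over Stat6-/- gave 35 and OVA over PBS 25. In lung the counts were 779, 12, 550 and 299, and 284, 6, 77 and 36 as deposited. Stat6+/- over Stat6-/- gave 516 after quantile normalization, 391 without the reference block, 400 with only the groups compared, 309 with the covariate and 289 without those arrays. Stat6+/- over Epi+ gave 212, 282 and 109 in the first 3 of these, and Epi+ over Stat6-/- gave 6 with the covariate and 4 without those arrays. With the replicate block, the lung counts were 0, 0, 0 and 4; the numbers share no known source. The tissue count of 662 was 373 as deposited, 374 after quantile normalization, 350 without the block, 310 with only the groups compared, 236 with the covariate and 229 without those arrays. Leaving out 1 array gave 347 to 539, 42 to 92, 0 to 18 and 17 to 34 in perfusate, 470 to 1066, 7 to 13, 273 to 806 and 105 to 308 in lung, and 502 to 919 for the tissue term. Of 74 calls of related genes 64 were lost under at least 1 alternative and 0 changed sign. With values as deposited 51 were lost and 23 kept. The replicate block, whose numbers share no known source, lost 42 and kept 0 of the calls it covered.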
